A study of Mus musculus with 2 samples.

Results

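The nuclear-encoded subunits of the respiratory chain and ATP synthase were compared between AIMP3-depleted mESCs and control mESCs. Members were genes on the array whose accession maps to an Ndufa, Ndufb, Ndufc, Ndufs, Ndufv or *Ndufab1* symbol (complex I), *Sdha* to *Sdhd* (complex II), a symbol starting Uqcr (complex III), a Cox4 to Cox8 symbol (complex IV) or a symbol starting Atp5 (complex V). Assembly factors and *Ndufa4l2* were left out of this set. The rule found 84 genes on 113 probes, and 82 of them could be tested among 24022 tested genes. Of the 24022, 14975 had a RefSeq symbol, and any other accession counted as its own gene. Shares of all tested genes include both kinds. The 82 were 37 genes of complex I, 4 of complex II, 8 of complex III, 16 of complex IV and 17 of complex V. The muscle isoform genes *Cox6a2* and *Cox8b*, each on 1 probe, were not well above background in any channel on either array and were left out.

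The mESCs carried the genotype AIMP3f/f;cre-ERT2, in which 4-hydroxytamoxifen (4-OHT) activates a Cre recombinase that deletes *AIMP3*, listed on the array as *Eef1e1*, whose product is a scaffold protein that several aminoacyl-tRNA synthetases share. AIMP3-depleted cells received 2 μM 4-OHT for 4 days in medium with LIF (n = 2), and control cells of the same genotype received ethanol. The cells came from blastocysts and were generally grown on fibroblast feeder layers, while the methods give medium conditioned by fibroblasts for cultures treated with drugs. Each array carried Cy5-labelled RNA of 1 depleted replicate against a Cy3-labelled pool of RNA from 2 control cultures, so the control was 1 sample and its own spread did not enter the test. Since the dyes were not swapped, depletion and a dye bias of single genes cannot be told apart, and neither can depletion and 4-OHT itself. No label says how independent the depleted cultures were, so p-values measure only the spread between these arrays. In limma the spread used for a gene came mostly from all tested genes (5.29 prior against 1 residual degrees of freedom).

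The respiratory chain sits in the inner mitochondrial membrane. Complexes I and II pass electrons from NADH and succinate to ubiquinone, complex III passes them on to cytochrome c, complex IV reduces oxygen, and complex V makes ATP from the proton gradient that complexes I, III and IV build up. A few core subunits are encoded in mitochondrial DNA and all others in the nucleus, and the nuclear promoters often hold sites for the transcription factors NRF1, the ETS factor GABP and YY1. Naive mESCs use respiration as well as glycolysis.

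The promoters of 3 members are shown because they belong to the subunits with the largest rise, the largest fall, and the largest fall outside complex IV with an unopposed probe. Each is the stretch of 200 bases before the transcription start on the gene's strand (RefSeq, GRCm38.p6), with matches to the NRF1 letters GCGCANGCG and the ETS letters CCGGAAG, on either strand, in capitals.
*Cox6a1* (chr5:115348959-115349158, minus strand): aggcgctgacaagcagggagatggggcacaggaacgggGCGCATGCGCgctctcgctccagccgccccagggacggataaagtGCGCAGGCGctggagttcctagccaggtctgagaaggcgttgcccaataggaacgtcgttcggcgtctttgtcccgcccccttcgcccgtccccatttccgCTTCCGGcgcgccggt
*Sdhd* (chr9:50603850-50604049, minus strand): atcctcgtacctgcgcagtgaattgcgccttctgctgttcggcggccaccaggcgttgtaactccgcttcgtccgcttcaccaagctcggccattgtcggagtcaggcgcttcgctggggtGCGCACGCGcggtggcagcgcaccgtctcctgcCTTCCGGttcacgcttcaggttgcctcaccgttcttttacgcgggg
*Cox7a1* (chr7:30183971-30184170, plus strand): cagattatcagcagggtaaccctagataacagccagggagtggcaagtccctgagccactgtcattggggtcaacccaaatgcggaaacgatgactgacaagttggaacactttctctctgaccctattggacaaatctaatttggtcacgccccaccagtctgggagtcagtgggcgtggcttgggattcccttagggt

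*Cox6a1*, the widely expressed form of a small complex IV subunit, and *Sdhd*, a membrane anchor of complex II, moved in opposite directions, and both promoters held NRF1 and ETS matches. The *Cox7a1* promoter, of a complex IV subunit known from heart and skeletal muscle, held neither of these motifs. Over the 300 bases listed per promoter (250 before and 50 after the start), 68 of the 82 members had a promoter, and 39 of these held at least 1 of the NRF1, ETS and YY1 motifs. The NRF1 letters occurred in 29.4% of member promoters, against 7.03% of all 27025 genes with a promoter and 13.3% of the tested genes among them. The ETS letters occurred in 25%, against 9.93% of all and 17.4% of tested genes. The YY1 letters AAGATGGC occurred in 14.7%, against 3.19% and 4.74%. The first capital run in *Cox6a1* matches the NRF1 letters on both strands. No motif contains another, and a match is a description of the sequence, not a measured binding site.

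As a check of the labels, the *Eef1e1* log2 ratio of depleted over control was -0.90 in replicate 1 and -0.90 in replicate 2 (limma, Benjamini-Hochberg adjusted p = 4.76e-05). Both arrays had no saturated spot, and the median signal of member probes was 391 to 574 times the background, against 2.68 to 3.31 for all spots. Of the 15 mESC markers, 5 rose (33.3%) and 9 fell (60%) with an adjusted p under 0.05 (limma). By that rule 30.6% of all tested genes rose and 23.7% fell. The mESC markers had a median log2 ratio of -0.15, with summed intensities of 165381 and 166407 in the control channels and 157386 and 157284 in the depleted channels. Fibroblast and endoderm markers were higher in depleted cells. Of 14 tested fibroblast markers (*Lum* was not tested), 13 passed upward by the same measure (median 0.79). *Col5a2* is 1 of these and entered the test only through the depleted channels, and without it 12 of 13 rose (median 0.81). Over the 14 markers, the summed intensity was 13676 and 13539 in the control channels and 26401 and 26844 in the depleted channels. All 11 endoderm markers rose more than 1.5-fold with p under 0.05 (limma, median 1.11), where 5.53% of all tested genes did. Their summed intensities were 70590 and 76462 in control and 148357 and 155753 in depleted channels. In bulk RNA, fewer cells of a type and less RNA per cell cannot be told apart, and the part of changed cell mixture in the subunit results was not tested.

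As a set, the subunits of the respiratory chain had ratios close to 0. Their median log2 ratio was -0.0020 (-0.016 in replicate 1 and 0.017 in replicate 2), against 0.016 for all tested genes and 0.0050 for the bright genes, the tested genes over a mean log2 intensity of 11.2, which held 78 of the 82 members. The bright genes were still dimmer than the subunits (median 13.0 against 15.0). Within intensity classes, the subunit medians lay above those of all tested genes from 12 upward and below them under 12. Of the 82 subunits, 41 had a positive and 41 a negative mean ratio, and 71 had the same sign on both arrays. The middle 50% of the subunits spanned 0.196 log2 units, compared with 0.319 for all tested genes and 0.346 for the bright genes. Within 0.25 log2 units of 0 lay 91.5% of the subunits, 68.8% of all tested genes and 65.8% of the bright genes.

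Only *Cox6a1* rose more than 1.5-fold with p under 0.05, where 5.53% of all tested genes did. No subunit fell by that much, where 0.791% of all tested genes did (limma). An unadjusted p under 0.05 was reached by 36 of the 82 subunits (43.9%) and by 60.5% of all tested genes. By the adjusted p alone (under 0.05, limma with Benjamini-Hochberg adjustment over all tested genes), 15 subunits rose (18.3%) and 14 fell (17.1%), against 30.6% and 23.7% of all tested genes. The other 53 did not pass. The same rule called 3 subunits higher and 7 lower from the scanner software's processed signals, where it called 21.8% and 23.3% of all tested genes. It called 8 and 4 from the authors' deposited table, beside 24.9% and 19.1% of all genes. When each array was only centred on its median it called 74 and 1, beside 54.5% and 8.74% of all genes. That scaling moved the median of all tested genes to 0.18 and of the bright genes to 0.29. Single falls under it are therefore given relative to the bright genes. Counts, ranges over settings and the values of the last section are not shifted in this way. Of 26 subunits named by rule and called as reported, 4 (*Cox6a1*, *Cox7a1*, *Cox8a* and *Ndufa9*) kept the call and the sign in all 8 processing settings with a test, and 22 did not. By the methods' t-test, 10 subunits (12.2%) and 24.5% of all tested genes had an unadjusted p under 0.05, and after adjustment 0 of the 24022 tested genes passed, subunits included.

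**Figure D1:**
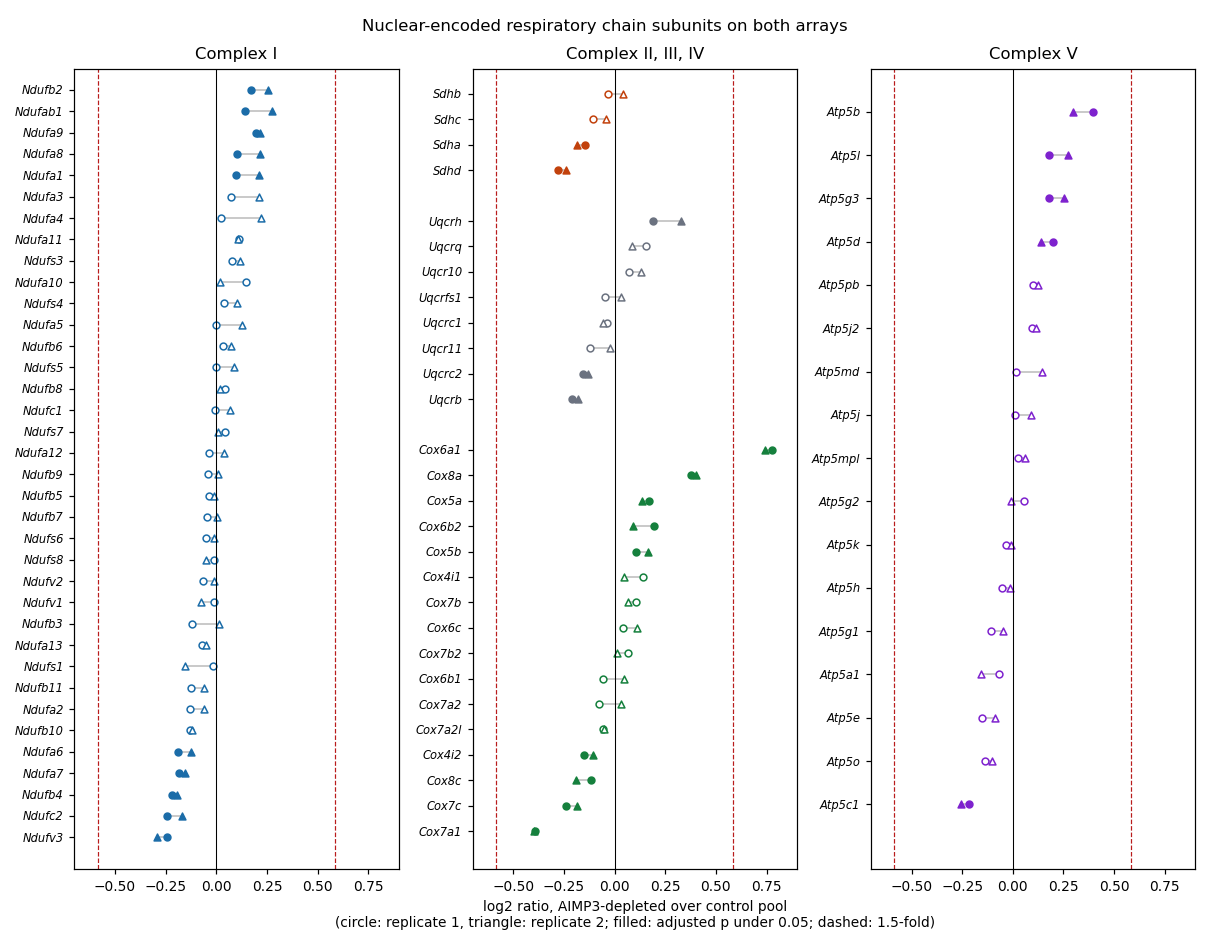
Log2 ratio of AIMP3-depleted over control for the subunits, 1 of which is not drawn, on both arrays (circle, replicate 1; triangle, replicate 2; filled, adjusted p under 0.05 by limma), by complex, with dashed lines at 1.5-fold. The means of all but 7 of the pairs of points lie within 0.25 of 0, and only *Cox6a1* lies beyond a dashed line.

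**Figure D2:**
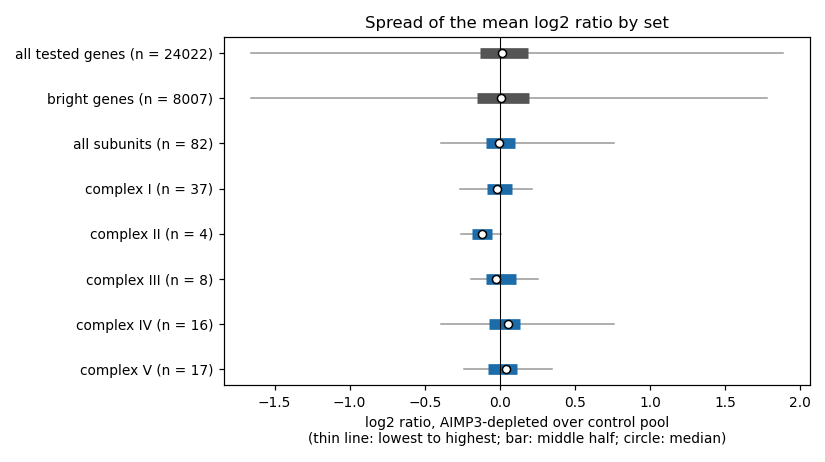
Mean log2 ratio of all tested genes, the bright genes among them (mean log2 intensity over 11.2), all subunits and each complex, as lowest to highest value (line), middle 50% (bar) and median (circle). The bar of the subunits, 0.196 wide, is shorter than that of all tested genes, 0.319 wide, and the complex II bar lies below 0.

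In complex I, 5 of the 37 subunits rose (13.5%), 5 fell (13.5%) and 27 did not pass the adjusted threshold, where 30.6% and 23.7% of all tested genes rose and fell, with a median of -0.016. None of the core subunits passed, and 0 of the 7 had an unadjusted p under 0.05 by limma, where 60.5% of all tested genes did. The core subunits carry the flavin and iron-sulphur clusters of electron transfer or shape the ubiquinone site. Among them, *Ndufs1* was -0.018 and -0.16, *Ndufs3* was 0.076 and 0.12, and the flavin-binding *Ndufv1* was -0.013 and -0.074. The calls were all among the accessory subunits, which surround and stabilise the core. Of the 30 subunits outside the core, 16.7% rose and 16.7% fell, and a difference from the core was not tested. *Ndufb2* was 0.17 and 0.25 on the arrays of replicates 1 and 2, a mean of 0.21 ± 0.059 (SD, n = 2; adjusted p = 0.0097 by limma). *Ndufab1*, the mitochondrial acyl carrier protein, was 0.14 and 0.28. *Ndufa9* was 0.20 and 0.22. These 3 subunits, with *Ndufa8* (mean 0.16) and *Ndufa1* (mean 0.16), were higher on both arrays.

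Lower on both arrays were *Ndufv3*, *Ndufc2*, *Ndufb4*, *Ndufa7* and *Ndufa6*, all accessory subunits too. Under median centring they were positive and lay at -0.18, -0.12, -0.10, -0.019 and -0.17 relative to the bright genes. *Ndufv3* was -0.24 and -0.29, a mean of -0.27 ± 0.034 (SD, n = 2; adjusted p = 0.0032 by limma), but its other tested probe had a mean of 0.14, the widest disagreement between probes of any subunit. *Ndufc2* was -0.24 and -0.17, and *Ndufb4* was -0.22 and -0.19. *Ndufa7* and *Ndufa6* had means of -0.17 and -0.16. *Ndufa4* is counted here with complex I by its name but is now placed in complex IV. Its ratios were 0.024 and 0.22, the largest difference between arrays of any subunit, and it did not pass.

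In complex II, which is also the succinate dehydrogenase of the citric acid cycle, 2 of 4 subunits fell (50%) and none rose. Of all tested genes, 23.7% fell and 30.6% rose. Relative to the bright genes under median centring, *Sdhd* was -0.20 and *Sdha* -0.11. *Sdhd*, a membrane anchor, had intensities of 11043 and 10638 in the control channels and 9550 and 9312 in the depleted channels (before loess), and log2 ratios of -0.28 and -0.24 (mean -0.26 ± 0.028, SD, n = 2; adjusted p = 0.0036 by limma). *Sdha*, the flavoprotein that oxidises succinate, was -0.14 and -0.18 (mean -0.16 ± 0.028, SD, n = 2; adjusted p = 0.021 by limma), and passed in only 3 of the 8 alternative settings. The iron-sulphur subunit *Sdhb* was -0.032 and 0.044, with probes that differed in sign, and the other anchor *Sdhc* was -0.11 and -0.040. The median of -0.12 was the lowest of the 5 complexes, and it stayed below 0 in every alternative except median centring, where it was 0.17, or -0.12 relative to the bright genes.

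In complex III, 1 of 8 subunits rose (12.5%) and 2 fell (25%), against 30.6% and 23.7% of all tested genes. Relative to the bright genes under median centring, *Uqcrb* was -0.12 and *Uqcrc2* -0.10. *Uqcrh*, the hinge protein next to cytochrome c1, was 0.19 and 0.33, a mean of 0.26 ± 0.097 (SD, n = 2; adjusted p = 0.0066 by limma), and its 2 probes had the same mean to within 0.00083. *Uqcrb*, which lies near the ubiquinone site, was -0.21 and -0.18 (mean -0.19), and its 3 probes lay between -0.19 and -0.14. The core protein *Uqcrc2* was -0.16 and -0.13 and passed in 3 of the 8 settings. The Rieske iron-sulphur protein *Uqcrfs1* was -0.047 and 0.032, on either side of 0. Cytochrome c1 (*Cyc1*), also a core subunit of complex III, is not named by the rule and not in these counts. It was -0.24 and -0.23 (adjusted p = 0.0050 by limma). *Uqcr10*, a small subunit, had a mean of 0.10, but its 3 probes lay between -0.074 and 0.10.

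Complex IV held the widest range, from *Cox7a1* at -0.39 to *Cox6a1* at 0.76, with 5 of 16 subunits raised (31.2%) and 4 lowered (25%), shares close to the 30.6% and 23.7% of all tested genes. *Cox6a1* had intensities of 71291 and 83206 in the control channels and 98746 and 113418 in the depleted channels (before loess). Its log2 ratios were 0.78 and 0.74, a mean of 0.76 ± 0.024 (SD, n = 2) or 1.69-fold, with a 95% interval of 0.65 to 0.87 (adjusted p = 7.13e-05 by limma). It passed the adjusted threshold under each of the alternative processing settings with a test, with ratios between 0.46 and 1.31. The 1.31 came with median centring, and was 1.02 relative to the bright genes. *Cox6a1* was under 1.5-fold with the processed signals (0.46), the authors' table (0.50) and a narrower loess span (0.54). *Cox8a*, the widely expressed form of another small subunit, was 0.38 and 0.40 on its brighter probe (mean 0.39 ± 0.017, SD, n = 2; adjusted p = 6.69e-04 by limma), and its dimmer probe had a mean of 0.10. *Cox5a*, *Cox5b* and *Cox6b2* had means of 0.15, 0.14 and 0.14. *Cox5a* and *Cox6b2* each passed in only 4 of the 8 alternative settings, and *Cox5a* was 0.022 with the processed signals. *Cox4i1*, the widely expressed form of the largest nuclear-encoded subunit, was 0.14 and 0.048 and did not pass.

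*Cox6a1* and *Cox8a* were among the brightest subunits, and loess did not centre the brightest genes at 0. The 283 tested genes at or over a mean log2 intensity of 17, where *Cox6a1* (17.5) and *Atp5b* lay, had a median ratio of 0.38, and 15.9% of them were raised more than 1.5-fold. Genes from 16 to 17, where *Cox8a* lay, had a median of 0.075. Minus the median of its class, *Cox6a1* was 0.38 above, *Cox8a* 0.32 above and *Atp5b* -0.032. Of the 9 subunits at or over 16, 5 rose (55.6%) and 0 fell (limma), where 54.8% of all 820 tested genes that bright rose and 7.56% fell. Of the 73 under 16, 10 rose (13.7%) and 14 fell (19.2%), against 29.8% and 24.2% of all tested genes under 16. With a loess span of 0.1 in place of 0.3, the genes at or over 17 had a median of 0.18, and *Cox6a1*, *Cox8a* and *Atp5b* were 0.54, 0.26 and 0.18. The part of signal brightness in these rises was not tested further.

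**Figure D3:**
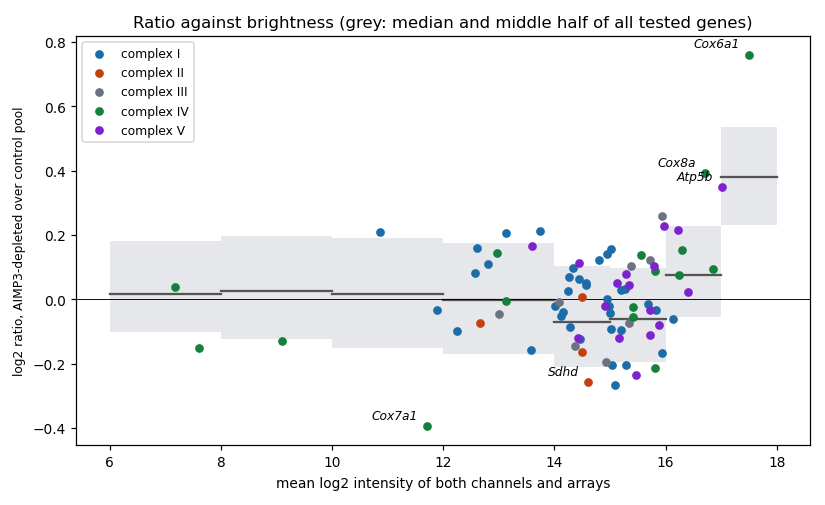
Mean log2 ratio of each subunit (points, by complex) against its mean log2 intensity, with the median (line) and middle 50% (grey band) of all tested genes in each intensity class. *Cox6a1* and *Atp5b* lie in the class whose median is 0.38, and *Cox7a1* lies below the band of dimmer genes whose median is 0.015.

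Falls in complex IV included isoforms known from particular tissues. *Cox7a1* had intensities of 2242 and 2104 in the control channels and 1614 and 1493 in the depleted channels (before loess). Its log2 ratios were -0.39 and -0.40, a mean of -0.39 ± 0.0019 (SD, n = 2) or 0.761-fold (adjusted p = 6.36e-04 by limma), the lowest of the subunits. It stayed negative and past the adjusted threshold under each of the alternative processing settings with a test, from -0.48 to -0.17. The -0.17 came with median centring, and was -0.46 relative to the bright genes. The widely expressed paralog *Cox7a2* was -0.076 and 0.031, and *Cox7a2l*, a supercomplex factor, was -0.058 and -0.054. *Cox4i2*, known from lung and low oxygen, had a mean of -0.13 and passed in 3 of the 8 settings. *Cox8c*, known from testis, had -0.15 and passed in 4. Both were dim, with intensities of 231 to 279 for *Cox4i2* and 50.4 to 78.7 for *Cox8c*. *Cox7b2*, also a testis form, had intensities of 31.1 to 34.0 in control and 33.2 to 35.8 in depleted channels and did not pass. *Cox6b2*, a testis form as well, was higher (0.19 and 0.091), whereas *Cox6b1* was -0.059 and 0.049. The widely expressed *Cox7c* also fell, to -0.24 and -0.19, with its 3 probes between -0.31 and -0.11. Relative to the bright genes under median centring, *Cox7c* was -0.072 and *Cox4i2*, which is dimmer than the bright genes, -0.25. Relative to all tested genes they were 0.033 and -0.14.

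In complex V, 4 of 17 subunits rose (23.5%) and 1 fell (5.88%), against 30.6% and 23.7% of all tested genes. Subunits of the catalytic head and its stalk had ratios of either sign. *Atp5b*, the catalytic beta subunit, was 0.40 and 0.30 (mean 0.35 ± 0.068, SD, n = 2; adjusted p = 0.0015 by limma), and *Atp5d*, the delta subunit of the central stalk, was 0.20 and 0.14 (mean 0.17). The alpha subunit *Atp5a1* was -0.069 and -0.16 and did not pass. *Atp5c1*, the gamma subunit that turns within the head, was -0.22 and -0.26 (mean -0.24 ± 0.028, SD, n = 2; adjusted p = 0.0052 by limma). It was the only complex V subunit to fall, and under median centring it was -0.12 relative to the bright genes.

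*Atp5l*, the membrane subunit g, was 0.18 and 0.27, and its 5 probes lay between 0.19 and 0.24. *Atp5g1*, *Atp5g2* and *Atp5g3* encode the same c subunit of the membrane ring. Of these, *Atp5g3* rose, to 0.18 and 0.25, while *Atp5g1* (-0.11 and -0.051) and *Atp5g2* (0.053 and -0.0078) did not pass. Other membrane and stalk subunits, such as *Atp5pb* (mean 0.11), *Atp5j2* (mean 0.10, with probes of opposite sign) and *Atp5o* (mean -0.12), did not pass.

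Where several probes measured a subunit, they often disagreed by as much as the effects. Of the 22 subunits with more than 1 tested probe, 8 had probes of opposite sign (*Atp5g2*, *Atp5j2*, *Cox7a2l*, *Ndufa5*, *Ndufb5*, *Ndufv3*, *Sdhb* and *Uqcr10*). The range between probes of a subunit had a median of 0.098 and reached 0.405. Many of these genes have processed pseudogenes, and cross-hybridization to them was not tested.

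Members with the NRF1 letters in the promoter had a median ratio of -0.033 (n = 20, 8 positive, from -0.26 to 0.76), and the other members with a promoter had 0.036 (n = 48, 29 positive). Members with the ETS letters had 0.0061 (n = 17), against 0.025 without (n = 51). Members with the YY1 letters had 0.061 (n = 10, 9 positive), against -0.0061 without (n = 58). The groups overlapped widely in each case, and no test was made of these differences.

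Other genes of oxidative phosphorylation were described from lists, whose counts stand beside the 30.6% of all tested genes that rose and the 23.7% that fell by the same adjusted p. Of 51 assembly factors, 47 were tested, 8 rose and 14 fell with an adjusted p under 0.05 (limma), with a median of -0.034. Among the 15 complex I assembly factors, 8 fell and 0 rose, with a median of -0.13, beside the median of -0.016 of the complex I subunits themselves. The largest of these falls were *Ndufaf7*, a methyltransferase, at -0.46 and -0.55, *Ndufaf6* at -0.44 and -0.48, and *Ecsit* at -0.39 and -0.35. In complex III assembly, 3 of 5 factors fell, led by *Uqcc2* (mean -0.34). In complex IV assembly, 6 of 21 rose and 2 fell. *Coa5* was the only factor past 1.5-fold (0.53 and 0.65, mean 0.59), and the mean over its 2 probes was 0.19. *Sdhaf2*, which inserts the flavin into *Sdha*, was 0.32 and 0.41.

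Among electron carriers, of 15 tested genes for cytochrome c, cytochrome c1 and ubiquinone, 7 fell, 2 rose and 6 did not pass (limma, adjusted p under 0.05; median -0.13). Cytochrome c (*Cycs*) was -0.18 and -0.12, its testis form *Cyct* -0.25 and -0.37, and cytochrome c1 (*Cyc1*), which is encoded in the nucleus but not named by the rule, -0.24 and -0.23. *Coq8a*, a kinase-like protein of ubiquinone synthesis, was the only gene of this list past 1.5-fold downward, at -0.56 and -0.79. *Coq10b*, a ubiquinone-binding protein, rose to 0.67 and 0.81. *Hccs*, which attaches haem to cytochrome c, was 0.74 and 0.50, and at a mean log2 intensity of 17.2 it lay in the brightest class with *Cox6a1*. With the narrower loess span it was 0.44.

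Regulators of respiratory gene expression moved in both directions. Of 18 tested, 3 passed upward and 6 fell (limma, adjusted p under 0.05; median -0.097). *Nrf1* was 0.28 and 0.44, while *Gabpa*, the DNA-binding GABP subunit, was -0.32 and -0.27, and *Yy1* was -0.057 and -0.045 and did not pass. The mitochondrial DNA proteins *Tfam* and *Ssbp1* had means of -0.34 and -0.35. *Ppargc1a*, a coactivator of respiratory genes, is 1 of the 3 and entered the test only through the depleted channels. Its intensities were 28.8 and 28.9 there and 13.1 and 10.5 in the control channels, which were not well above background, so no fold is given. Without *Ppargc1a*, 2 of 17 regulators passed upward (median -0.10). Of the 7 modulators, *Ndufa4l2*, a paralog of *Ndufa4* known from low oxygen, was -1.04 and -1.40, the largest change among the tested genes of these oxidative phosphorylation lists.

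Among 6 carriers and porins that link the matrix to the cytosol, *Slc25a4* was 0.28 and 0.32 and *Slc25a5*, the other ADP/ATP carrier measured, was -0.42 and -0.42. Of the 6, 2 rose and 2 fell (limma, adjusted p under 0.05). The phosphate carrier *Slc25a3* rose too (mean 0.17), but did not pass with the mean of all probes (0.073). The porin *Vdac1* fell (mean -0.13, adjusted p = 0.0495 by limma), and was -0.021 relative to the bright genes under median centring. Of 77 tested genes of the mitochondrial ribosome, which translates the mtDNA-encoded subunits, 37 fell and 9 rose (limma, adjusted p under 0.05; median -0.12). These are 48.1% and 11.7% of the list. Of its genes, 61 lay at log2 intensities from 12 to 16, where 30.6% to 38.8% of all tested genes in each class fell. The largest fall there was *Mrpl2* (mean -0.44) and the largest rise *Mrps6* (mean 0.37). The 14 genes listed as mtDNA-encoded had no tested probe and were not analysed here. Relative to the bright genes under median centring, the medians were -0.12 for assembly factors, -0.18 for electron carriers, -0.17 for biogenesis regulators and -0.14 for the mitochondrial ribosome, and 0.067 for modulators and 0.14 for carriers and porins. Relative to all tested genes, the same medians were nearer to 0 or higher: -0.018, -0.073, -0.062 and -0.036, and 0.17 and 0.24.

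**Figure D4:**
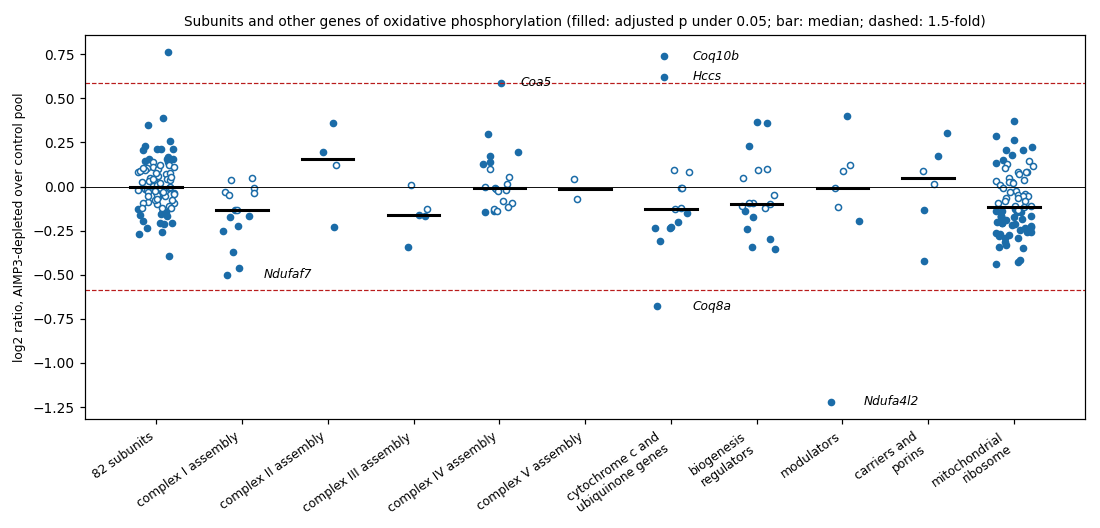
Mean log2 ratio of each tested gene, for the 82 subunits and the other lists of oxidative phosphorylation (filled, adjusted p under 0.05 by limma; bar, median; dashed, 1.5-fold). Complex I assembly factors have a median of -0.13 and the mitochondrial ribosome of -0.12, while the subunits have -0.0020.

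The centre of the subunits depended on the scaling. With median centring in place of loess, the median of all tested genes was 0.18, that of the bright genes 0.29 and that of the subunits 0.36, so the subunits lay 0.18 above all genes and 0.074 above the bright genes. Under loess they lay 0.0070 below the bright genes, and with a narrower loess span of 0.1 they lay 0.017 above. The bright genes were dimmer than the subunits, with a median log2 intensity of 13.0 against 15.0. Within narrower intensity classes under loess, the 6 subunits under 12 lay below all tested genes in each of 3 classes, with medians of -0.056 against 0.017 under 8 (n = 2), -0.13 against 0.026 from 8 to 10 (n = 1) and -0.033 against 0.015 from 10 to 12 (n = 3). In the brighter classes the subunits lay above, with a median of 0.096 against -0.0031 for all tested genes from 12 to 14, -0.021 against -0.071 from 14 to 15, -0.027 against -0.061 from 15 to 16, 0.094 against 0.075 from 16 to 17, and 0.55 against 0.38 at or over 17 (n = 2). With the processed signals and with the authors' table they lay 0.049 and 0.050 above the bright genes. Under median centring the complex medians relative to the bright genes were 0.065, -0.12, 0.025, 0.097 and 0.15 for complexes I to V. In the alternatives other than median centring, the complex II median stayed below 0 and the other 4 changed sign in at least 1. Complex IV was 0.057 as reported, 0.075 with *Ndufa4* moved into it, -0.0020 with the narrower loess span and -0.023 over its subunits under a log2 intensity of 16.

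**Figure D5:**
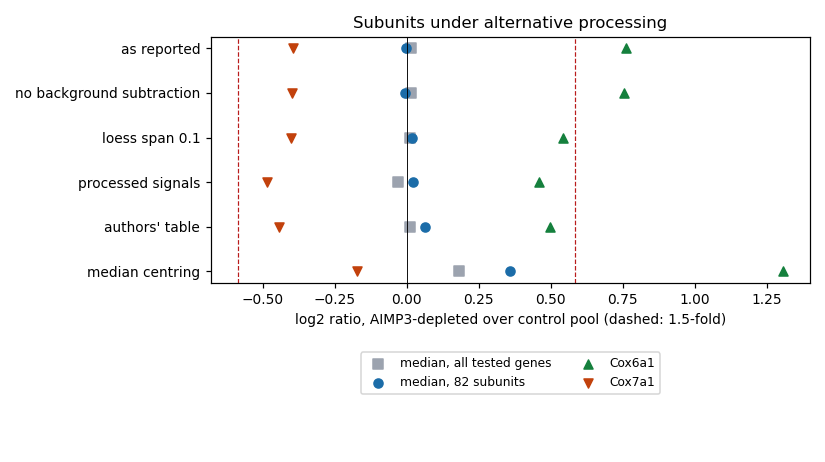
Median log2 ratio of all tested genes (squares) and of the 82 subunits (circles), with the ratios of *Cox6a1* and *Cox7a1* (triangles), under 6 ways of processing. The medians stay near 0 except under median centring (0.18 and 0.36), *Cox6a1* crosses the dashed 1.5-fold line in 3 of the 6, and *Cox7a1* stays below 0 in each.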

How the data were processed

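The authors deposited scanner output with the intensity of each spot and its local background in both channels (Feature Extraction, with version 11.5.1.1 in the headers where the methods give a different one), and software-processed signals. Their deposited table holds log2 ratios after GeneSpring. On 55249 single-spot probes its values equalled the log2 ratio of the processed signals plus a constant (0.040 and 0.039) to within 0.01. Its column medians were 0.091 and 0.11. The ratio direction, depleted over control, comes from the dyes in the labels.

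Median signals were background-corrected (normexp, offset 50) and normalized by loess (span 0.3) with limma 3.58.1 in R 4.3.3. Control spots and outlier spots (215 and 227) were left out. A probe was tested if either channel was well above background on each array (33012 of 55681), with the brightest probe per gene. Genes were named by accession through RefSeq (GRCm38.p6); the array design used mm9, so no array coordinates are given.

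The mean ratio was tested against 0 (lmFit, eBayes; 1 residual and 5.29 prior degrees of freedom) with Benjamini-Hochberg adjustment over all 24022 genes. Members and lists were chosen with earlier results of these data known. Named genes were *Eef1e1*, members past 1.5-fold, up to 4 rises and 4 falls per complex with an adjusted p under 0.05 and the same sign on both arrays, isoform and core subunits, members with probes of opposite sign or left out, and, per other list, genes past 1.5-fold and up to 2 largest rises and falls. Others named were chosen after their values were seen. The steps were tested on simulated data. Columns of per-sample values left out numbered 0. Among the subunits, 1 gene enters the counts and medians, but its own value is not given here.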

Additional observations from a re-analysis of the deposited data

How the results depend on the processing

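No paired analysis was possible because both arrays hold 1 group against 1 control pool. The precision is limited by 2 arrays, and leaving out either gives values with no test. With replicate 1 or replicate 2 left out, the median ratio ranged from -0.014 to 0.0093 in complex I, -0.13 to -0.11 in complex II, -0.042 to 0.0045 in complex III, 0.048 to 0.052 in complex IV, 0.014 to 0.062 in complex V, -0.082 to -0.029 in the assembly factors, -0.095 to -0.087 in the biogenesis regulators and -0.12 to -0.11 in the mitochondrial ribosome. In each result below the cause was not tested unless the setting itself gives it.

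The number of subunits raised past 1.5-fold was 1 as reported (5.53% of all tested genes), 8 under median centring (11.8%), and 0 with processed signals (8.08%), the authors' table (8.87%), a loess span of 0.1 (5.3%), a 2-fold threshold (1.17%), or over subunits under a log2 intensity of 16. Raised and lowered by adjusted p were 3 and 7 with processed signals (21.8% and 23.3% of all tested genes), 74 and 1 under median centring (54.5% and 8.74%), 9 and 9 with no filter, where more dim genes were tested (18.3% and 12.9%), 8 and 4 with the authors' table (24.9% and 19.1%), and 0 and 0 by the methods' t-test, which called 0 of all 24022 genes. The span of 0.1, the intensity limit and the placing of *Ndufa4* were chosen after seeing the data.

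Without background subtraction, the median was 0.047 in complex IV and -0.10 in the biogenesis regulators. With processed signals, it was 0.023 over all subunits, 0.023, -0.097, 0.017 and 0.014 in complexes I to IV, -0.082 in assembly factors, -0.15 in biogenesis regulators, -0.084 in modulators and 0.10 in carriers and porins. Under median centring, it was 0.36 over all subunits, 0.35, 0.17, 0.31, 0.38 and 0.44 in complexes I to V, 0.16 in assembly factors, 0.11 in electron carriers, 0.12 in biogenesis regulators, 0.35 in modulators, 0.42 in carriers and porins and 0.14 in the mitochondrial ribosome. With the mean of all probes, complex II was -0.13 and complex V -0.012. With the authors' table, the median was 0.063 over all subunits, 0.063, -0.057 and 0.057 in complexes I to III, 0.11 in complex V, -0.11 in biogenesis regulators, -0.044 in modulators, 0.14 in carriers and porins and -0.073 in the mitochondrial ribosome. With a span of 0.1, it was 0.029, -0.089, 0.0062 and -0.0020 in complexes I to IV, -0.084 in modulators, 0.069 in carriers and porins and -0.11 in the mitochondrial ribosome. Complex IV was -0.023 under a log2 intensity of 16 and 0.075 with *Ndufa4*.

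Median centring moved the median of all tested genes from 0.016 to 0.18 and of the bright genes from 0.0050 to 0.29, and 14.2% of all tested genes, 31.5% of the bright genes and 46.3% of the subunits turned sign and passed the adjusted threshold with it or as reported. Of the 24 named genes turned, all negative as reported, 18 lay below the bright genes and 8 below the median of all genes. No other setting turned the sign of a named gene that passed in either. The values with median centring were positive for *Ndufv3* (0.11), *Ndufc2* (0.17), *Ndufb4* (0.18), *Ndufa7* (0.27), *Sdhd* (0.085), *Sdha* (0.17), *Uqcrb* (0.17), *Uqcrc2* (0.18), *Cox7c* (0.21), *Cox4i2* (0.037), *Atp5c1* (0.17), *Cox6b1* (0.25), *Cox7a2* (0.38), *Cox7a2l* (0.34), *Atp5g1* (0.35), *Ndufs1* (0.23), *Ndufs8* (0.19), *Ndufv1* (0.33), *Ndufv2* (0.27), *Uqcrfs1* (0.30), *Atp5a1* (0.31), *Ndufb5* (0.28), *Higd1a* (0.17) and *Vdac1* (0.26).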
